A study of Mus musculus with 3 samples.

Results

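The genes described here encode the proteins that lower cytosolic calcium: the 3 SERCA pumps (Atp2a1, Atp2a2 and Atp2a3), the 4 PMCA pumps (Atp2b1, Atp2b2, Atp2b3 and Atp2b4) and the 3 NCX sodium-calcium exchangers (Slc8a1, Slc8a2 and Slc8a3). They were chosen by name as the complete gene families, not by their values, though with earlier results of these data known. All 10 genes had a row among the 46073 Ensembl genes of the RNA table. The tissue was medial prefrontal cortex (mPFC), a frontal cortical area, of naïve C57BL/6 mice aged 3 months. The series has 1 sample each of methylated DNA, input DNA and RNA. The RNA sample was used here and the DNA samples were not analysed here. The design text states 3 RNA replicates, but the table gives 1 value per gene, so the values carry no error, no test was possible, and differences between genes could not be set against a spread between animals.

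Calcium enters neurons through channels and is then removed by pumps and exchangers in different membranes. SERCA pumps use ATP to move calcium from the cytosol into the endoplasmic reticulum (ER), the main internal store. PMCA pumps use ATP to export calcium across the plasma membrane and are activated by calmodulin, with high affinity and a low turnover rate. NCX proteins use the sodium gradient to export calcium at a lower affinity and a higher rate, and can run in reverse when sodium builds up or the membrane is depolarised.

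RNA of the calcium pumps and exchangers was dominated by 4 genes: Atp2a2, Atp2b1, Slc8a2 and Atp2b2. Levels are given in FPKM, which divides the fragments of a gene by its transcript length and by the total mapped fragments, a scale that allows genes to be compared within a sample. Each of the 4 stood above 50 FPKM, and together they held 82.7% of the summed FPKM of the 10 genes, which was 384 FPKM. At a floor of 1 FPKM, 9 of the 10 genes were detected, against 58.6% of protein-coding genes and 31.5% of all rows. At 10 FPKM or more there were 6 of the 10, against 29.1% of protein-coding genes. The median of the 10 genes was 26.8 FPKM, against 2.59 FPKM over the 20635 protein-coding rows and 9.86 FPKM over the detected ones. In a bulk tissue value, fewer cells that express a gene and less RNA per cell cannot be told apart.

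**Figure D1:**
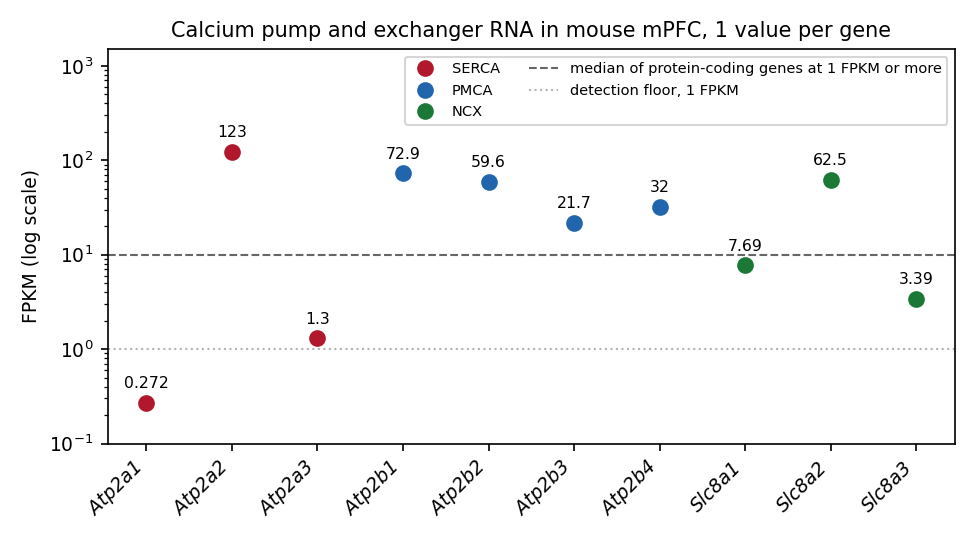
FPKM (log axis) of the 10 calcium pump and exchanger genes, 1 point per gene, coloured by family; the dashed line is the median of detected protein-coding genes (9.86 FPKM) and the dotted line the floor of 1 FPKM. The SERCA and NCX families each have 1 high gene, while the PMCA genes lie between 21.7 and 72.9 FPKM.

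The SERCA family was carried almost wholly by Atp2a2. Atp2a2 (ENSMUSG00000029467; chromosome 5, 122453513 to 122502225, GRCm38, the assembly named mm10) encodes SERCA2, the pump of heart and slow muscle and, as its SERCA2b splice form, of most other cells. It stood at 123 FPKM, the highest of the 10 genes, which placed it at rank 445 of the protein-coding rows, above 97.8% of them. The table is per gene, so its splice forms were not told apart.

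Atp2a3 and Atp2a1 were at the other end of the order. Atp2a3 (chromosome 11, 72961169 to 72993043) encodes SERCA3, known from blood cells, platelets, endothelium and cerebellar Purkinje cells, and was at 1.30 FPKM. Atp2a1 (chromosome 7, 126445858 to 126463103) encodes SERCA1, the pump of fast skeletal muscle, and was at 0.272 FPKM, the only member under the floor. Atp2a2 was therefore 94.3-fold above Atp2a3 and 452-fold above Atp2a1, and held 98.7% of the summed SERCA FPKM of 124.

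Markers of cells that could carry the minor SERCA genes were examined beside them. At the same floor 58.6% of protein-coding genes were detected. Of 8 striated muscle markers 1 was at 1 FPKM or more, the skeletal actin gene Acta1 at 4.75 FPKM. The lowest, the muscle creatine kinase gene Ckm, was at 0.0520 FPKM, and the list summed to 6.13 FPKM. Of 7 blood cell and platelet markers 5 were detected. The globin gene Hbb-bs was highest at 46.4 FPKM, the platelet chemokine gene Ppbp was lowest, under the floor, at 0.112 FPKM, and the list summed to 67.4 FPKM. All 4 endothelial markers were detected, from Kdr at 1.40 to Cldn5 at 10.8 FPKM, with a sum of 21.5 FPKM. Of 4 cerebellar markers 2 were detected, with Pcp2 highest at 2.13 FPKM and the granule cell gene Gabra6 lowest at 0.0293 FPKM. The part of these cells in the Atp2a1 and Atp2a3 values was not tested.

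The PMCA family was spread over all of its members. Atp2b1 (chromosome 10, 98914630 to 99026143) encodes PMCA1, the pump found in nearly all cells, and was highest at 72.9 FPKM. Atp2b2 (chromosome 6, 113743831 to 114042613) encodes PMCA2, the fast pump of neurons and inner ear hair cells whose loss causes deafness and ataxia in mice, and was at 59.6 FPKM. Atp2b4 (chromosome 1, 133702674 to 133801059) encodes PMCA4, a broadly expressed form needed for sperm motility, and was at 32.0 FPKM. Atp2b3 (chromosome X, 73502749 to 73573275) encodes PMCA3, known mainly from brain, and was lowest at 21.7 FPKM.

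The 4 PMCA genes lay within 3.36-fold of each other and all exceeded the median of detected protein-coding genes. Their shares of the summed PMCA FPKM of 186 were 39.2% for Atp2b1, 32.0% for Atp2b2, 17.2% for Atp2b4 and 11.6% for Atp2b3. Atp2b1 was 1.22-fold above Atp2b2, and Atp2b4 was 1.48-fold above Atp2b3. With no replicate error, neither order can be told from equal levels.

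Among the sodium-calcium exchangers Slc8a2 was the main gene. Slc8a2 (chromosome 7, 16127592 to 16161063) encodes NCX2, the form known mainly from brain, and was at 62.5 FPKM. Slc8a1 (chromosome 17, 81373105 to 81738387) encodes NCX1, the exchanger of the heart that is also found in many other tissues, and was at 7.69 FPKM. Slc8a3 (chromosome 12, 81197915 to 81333732) encodes NCX3, known from brain and skeletal muscle, and was at 3.39 FPKM. Slc8a2 was 8.13-fold above Slc8a1 and 18.5-fold above Slc8a3, and held 84.9% of the summed NCX FPKM of 73.6.

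In the order of all 10 genes the steps between neighbours differed widely. Atp2a2 was 1.69-fold above Atp2b1, which was 1.17-fold above Slc8a2, which was 1.05-fold above Atp2b2. Below them, Atp2b3 was 2.82-fold above Slc8a1, Slc8a3 was 2.60-fold above Atp2a3, and Atp2a3 was 4.79-fold above Atp2a1, the widest step. Per family, the PMCA sum was 1.496 times the SERCA sum and 2.53 times the NCX sum, while by the median gene these ratios were 35.1 and 5.95. The mean PMCA gene was 1.12 times the mean SERCA gene. The SERCA sum was 1.69 times the NCX sum, but the median SERCA gene was 0.169 times the median NCX gene, so the order of these families depends on whether the single high gene is counted.

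**Figure D2:**
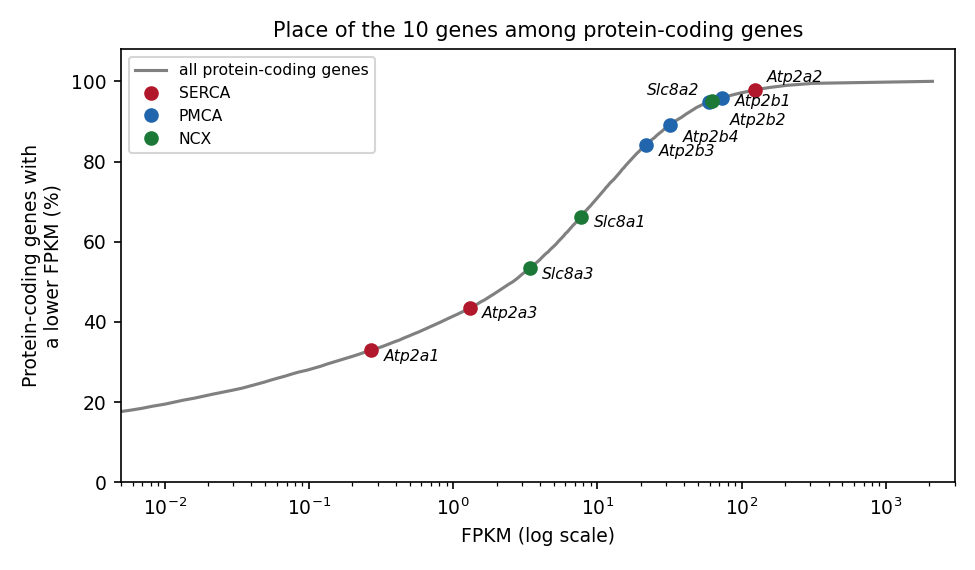
Percentage of protein-coding genes with a lower FPKM (vertical axis) against FPKM (log axis); the grey line is all protein-coding genes and the points are the 10 calcium pump and exchanger genes. Atp2a2, Atp2b1, Slc8a2 and Atp2b2 lie above 94.9% or more of protein-coding genes, and Atp2a1 above 33.0%.

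Of the 12 pairs within families, 7 were 2-fold or more apart when compared as log2(FPKM + 1), which understates differences between low genes. Of the 10 pairs in which both genes were detected, 6 were apart, against 65.7% of all pairs of detected protein-coding genes, a count near that background. The PMCA family gave 3 of its 6 pairs, and the SERCA and NCX families 2 of 3 each. Atp2a3 and Atp2a1, at 4.79-fold in FPKM, were not apart on this scale, with a log2 difference of 0.86, and neither were Slc8a1 and Slc8a3, with a log2 difference of 0.99.

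Families differed in how far 1 gene led. In addition to Atp2a2, leading genes held nearly all of the Golgi calcium pump family, with Atp2c1 at 99.5%, and of the IP3 receptors, with Itpr1 at 96.4%. Slc8a2 at 84.9% came next, above Ryr2 at 67.1% of the ryanodine receptors and Slc24a2 at 55.6% of the potassium-dependent exchangers. The PMCA family, with Atp2b1 at 39.2%, had the lowest share for a leading gene among these 7 families. The Golgi pump family has 2 genes, PMCA 4, the potassium-dependent exchangers 5 and the others 3 each. The lowest possible leading share is higher in a family of fewer genes, so the shares are not on an equal scale.

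**Figure D3:**
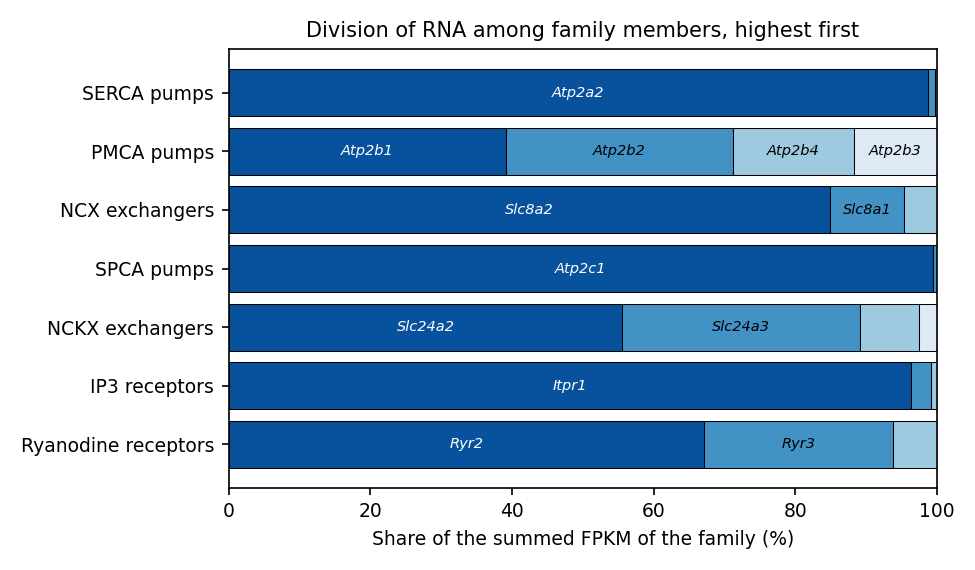
Share of the summed FPKM of each gene family (horizontal axis, %) held by each of its members, highest member first and darkest; segments under 9% are not named. Atp2a2 fills 98.7% of the SERCA bar and Slc8a2 84.9% of the NCX bar, while the PMCA bar is divided among 4 genes with Atp2b1 at 39.2%.

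Genes that act on SERCA or beside it in the ER were examined next. As background, 58.6% of protein-coding genes passed the floor of 1 FPKM, and the median protein-coding gene was at 2.59 FPKM. Of 8 SERCA regulators 5 were matched to a row, and 2 of these were detected: S100a1, which encodes a calcium-binding protein, at 57.6 FPKM and Sri, which encodes sorcin, at 38.5 FPKM. The regulators Strit1, Erln and Arln were not matched, so their RNA levels are not known here. The matched small membrane inhibitors of SERCA, which are known from muscle, were all under the floor. Sln (sarcolipin) was at 0.547 FPKM, Mrln (myoregulin) at 0.320 FPKM and Pln (phospholamban) at 0.274 FPKM. Against these, Atp2a2 was 225-fold above Sln and 449-fold above Pln. The median of the 5 matched regulators was 0.547 FPKM.

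The channels that release the calcium SERCA stores were lower in sum than the pumps, but not by the median gene. The SERCA sum, nearly all of it Atp2a2, was 1.70 times the sum of the 6 release channel genes, which was 73.0 FPKM. Of these channels 5 of 6 passed the floor, against 58.6% of protein-coding genes. The median SERCA gene was at 1.30 FPKM and the median release channel gene at 3.08 FPKM. Itpr1, the main neuronal IP3 receptor, was at 54.0 FPKM and Ryr2, the ryanodine receptor of heart and brain, at 11.4 FPKM. Ryr1, the skeletal muscle form, was at 1.04 FPKM and Itpr3 was lowest at 0.416 FPKM. Atp2a2 was 2.28-fold above Itpr1 and 10.8-fold above Ryr2.

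Of 11 ER calcium storage and sensing genes 9 passed the floor, against 58.6% of protein-coding genes. The median of the list was 21.9 FPKM. The ER calcium-binding chaperone genes Calr (calreticulin) and Hsp90b1 were highest at 137 and 103 FPKM, close to Atp2a2 at 123 FPKM. The muscle calsequestrin genes were under the floor, Casq2 at 0.654 FPKM and Casq1 at 0.578 FPKM. The ER calcium sensor gene Stim2 was at 33.6 FPKM and its paralog Stim1 at 17.0 FPKM, and the channel gene Orai2, at 21.9 FPKM, was the highest of the Orai genes.

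Partners of PMCA passed the floor in 11 of 11 cases, against 58.6% of protein-coding genes. The median of the partners was 221 FPKM, against 2.59 FPKM over protein-coding genes. The PMCA sum of 186 FPKM stood beside 593 FPKM for Nptn (neuroplastin) and Bsg (basigin), which encode the membrane subunits that PMCA proteins need to reach the cell surface. Nptn was at 372 FPKM and Bsg at 221 FPKM. The genes Calm3 and Calm2, which encode the activator calmodulin, were at 1260 and 1032 FPKM, and they have close copies, so their split is uncertain. Of the scaffold genes whose PDZ proteins bind the PMCA tail, Dlg4 was highest at 380 FPKM and Slc9a3r2 lowest at 12.2 FPKM.

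Other calcium transporters came close to the exchangers in level. In a list of 9 other calcium pump and exchanger genes the median was 7.51 FPKM. Of the 9, 7 passed the floor, against 58.6% of protein-coding genes. Slc8a2 was 1.24-fold above Slc24a2, the neuronal potassium-dependent sodium-calcium exchanger gene, at 50.2 FPKM. The NCX sum was 0.814 times the sum of the 5 Slc24a genes, which was 90.4 FPKM and included Slc24a3 at 30.4 FPKM. Slc8a1 was lower than Slc24a3 and Slc24a2. Slc24a1, the exchanger of rod photoreceptors, was lowest at 0.0221 FPKM. Slc8b1, which encodes the mitochondrial exchanger NCLX, was at 1.88 FPKM, 33.2-fold below Slc8a2. Atp2c1, which encodes the Golgi calcium and manganese pump, was at 55.0 FPKM, and Atp2a2 was 2.23-fold above it, while its paralog Atp2c2 was at 0.278 FPKM.

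Other routes by which calcium leaves the cytosol or is buffered were represented too. All 8 mitochondrial calcium transport genes passed the floor, against 58.6% of protein-coding genes. The median of these 8 was 25.2 FPKM. Ghitm and Smdt1, which encodes the uniporter subunit EMRE, were highest at 115 and 107 FPKM. The uniporter pore gene Mcu was at 6.62 FPKM and its inhibitory paralog Mcub lowest at 2.08 FPKM. All 7 cytosolic calcium-binding protein genes passed the floor too, and their median was 61.6 FPKM. They ranged upward from the interneuron marker Calb2 at 10.4 FPKM to Vsnl1 at 301 and Hpca at 482 FPKM, which encode neuronal calcium sensors.

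**Figure D4:**
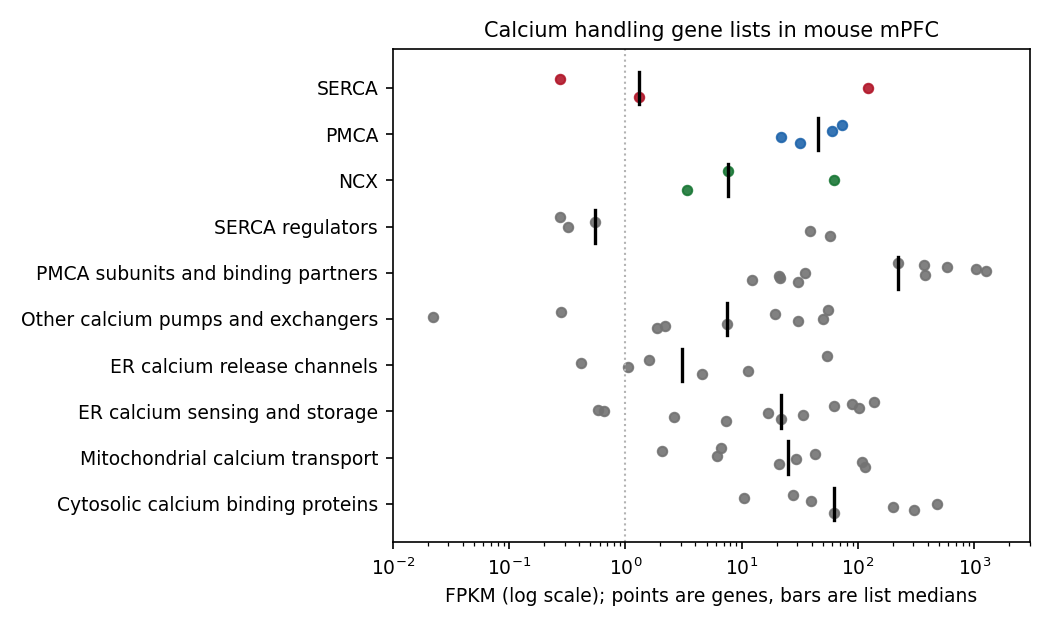
FPKM (log axis) of every matched gene in the 3 calcium pump and exchanger families and in 7 lists of related genes; points are genes, vertical bars are list medians and the dotted line is 1 FPKM. The PMCA points form the narrowest group of the 3 families, and the 5 SERCA regulators split into 2 detected genes and 3 below the floor.

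Markers of brain cell types were examined in the same RNA. The lists are not particular to mPFC, so they do not test the tissue label. At the floor of 1 FPKM, 58.6% of protein-coding genes were detected. All 7 excitatory cortical neuron markers were detected, from Emx1 at 7.08 to Nrgn at 874 FPKM, as were all 5 of each of the next 4 lists. Inhibitory neuron markers ran from Slc32a1 at 18.6 to Sst at 297 FPKM, and astrocyte markers from Aqp4 at 14.6 to Slc1a3 at 110 FPKM. Oligodendrocyte markers ran from Mog at 30.8 to Mbp at 912 FPKM, and microglia markers from Tmem119 at 7.66 to C1qa at 39.0 FPKM. Mural cell markers were detected in 4 of 5 cases, with Rgs5 highest at 13.0 FPKM and Myh11, under the floor, at 0.738 FPKM. All 4 choroid plexus markers were detected, from Clic6 at 3.68 to Ttr at 566 FPKM, and the part of that tissue in the values of the pumps and exchangers was not tested. The RNA is from whole tissue, so no level was assigned to a cell type.

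Promoter sequence was available for 8 of the 10 genes, in 11 windows, from the RefSeq tables for GRCm38.p6. Each window runs from 250 bases before to 50 bases after a start site. CpG, the dinucleotide that carries methylation in mammals, was counted in each window because the series is about methylated DNA. Over 21263 windows of protein-coding genes the median was 13 CpG, with quartiles of 4 and 24. The following 4 windows are shown because they join high and low RNA levels with high and low CpG counts. Every CpG is in capitals.
Atp2b1 (72.9 FPKM, chr10:98914392-98914691, plus strand): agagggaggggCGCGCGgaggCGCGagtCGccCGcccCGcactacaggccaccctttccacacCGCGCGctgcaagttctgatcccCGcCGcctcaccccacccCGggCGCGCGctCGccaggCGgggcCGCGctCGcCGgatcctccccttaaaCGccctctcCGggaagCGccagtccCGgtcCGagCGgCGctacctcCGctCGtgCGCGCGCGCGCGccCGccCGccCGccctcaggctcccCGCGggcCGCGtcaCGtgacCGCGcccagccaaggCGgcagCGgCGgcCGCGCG
Slc8a2 (62.5 FPKM, chr7:16129576-16129875, plus strand): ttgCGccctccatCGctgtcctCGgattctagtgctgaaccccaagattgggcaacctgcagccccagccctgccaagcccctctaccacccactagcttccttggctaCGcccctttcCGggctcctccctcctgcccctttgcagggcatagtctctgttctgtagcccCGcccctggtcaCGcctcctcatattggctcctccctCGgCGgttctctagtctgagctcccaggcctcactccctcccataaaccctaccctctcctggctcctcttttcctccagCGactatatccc
Atp2a3 (1.30 FPKM, chr11:72960919-72961218, plus strand): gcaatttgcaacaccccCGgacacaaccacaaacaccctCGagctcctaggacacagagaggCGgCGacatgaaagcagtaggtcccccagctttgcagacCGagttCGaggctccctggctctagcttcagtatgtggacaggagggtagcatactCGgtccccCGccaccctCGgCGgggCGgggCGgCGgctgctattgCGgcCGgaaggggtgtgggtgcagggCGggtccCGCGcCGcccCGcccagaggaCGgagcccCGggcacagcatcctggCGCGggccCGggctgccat
Atp2a1 (0.272 FPKM, chr7:126463024-126463323, minus strand): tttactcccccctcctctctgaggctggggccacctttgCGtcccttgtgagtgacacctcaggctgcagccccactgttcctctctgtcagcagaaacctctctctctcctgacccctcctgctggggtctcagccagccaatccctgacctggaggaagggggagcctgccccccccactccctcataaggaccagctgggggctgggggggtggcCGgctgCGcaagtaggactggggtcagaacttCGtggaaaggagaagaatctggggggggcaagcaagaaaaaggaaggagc

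The CpG counts of the windows did not follow the order of the RNA levels. The windows shown were picked for such contrasts, so they are examples and do not measure how often these occur. The Atp2b1 window shown held 54 CpG, more than 99.6% of all windows, and its other window 45 CpG. The window of Slc8a2, whose RNA level was close to that of Atp2b1, held 10 CpG, more than 43.2% of windows. The Atp2a3 window held 25 CpG at a level of 1.30 FPKM, and the Atp2a1 window held 4 CpG at 0.272 FPKM.

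The remaining windows held between 4 and 27 CpG. The Atp2b2 windows held 27, 8 and 12 CpG, the Slc8a3 window 18, the Slc8a1 window 9 and the Atp2b4 window 4. Across protein-coding genes, with the richest window of each gene, the median count was 2 CpG for 2707 genes listed at 0 FPKM, 6 for genes under 1 FPKM, 21 for genes from 1 to under 10 FPKM and 24 for genes at 50 FPKM or more. Against the 1036 genes at 50 FPKM or more, Atp2b1 exceeded 99.2%, Atp2b2 60.6% and Slc8a2 8.01%. Atp2b4 exceeded 1.62% of the 3827 genes from 10 to under 50 FPKM. Among genes from 1 to under 10 FPKM, Atp2a3 exceeded 62.0%, Slc8a3 38.5% and Slc8a1 15.0%, and Atp2a1 exceeded 30.8% of genes over 0 and under 1 FPKM. A window need not be the start used in cortex. The start site in the Slc8a2 window lay 2.23 kb, and that in the Atp2b4 window 47.3 kb, inside the 5′ end of the RefSeq gene span.

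**Figure D5:**
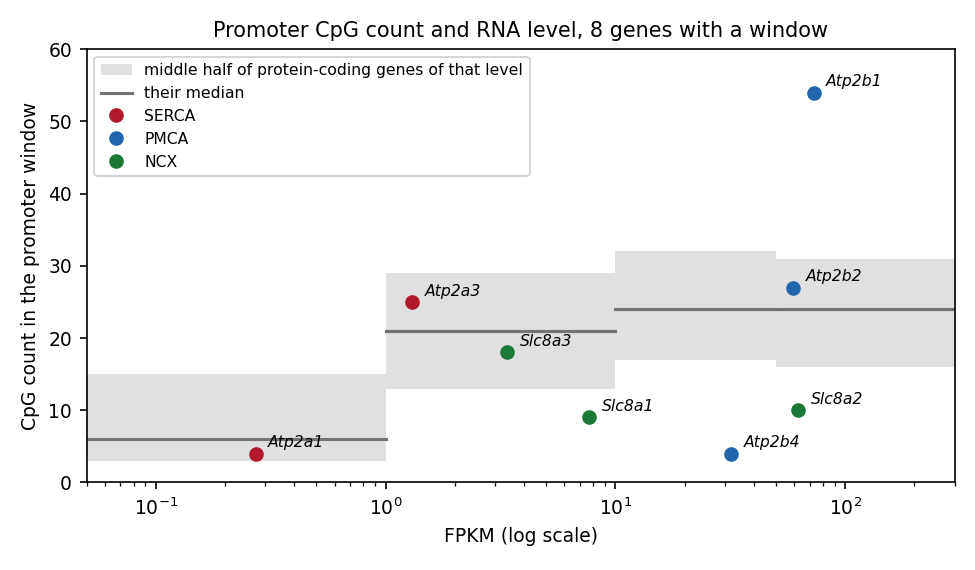
CpG count in the promoter window (vertical axis; the richest window where a gene has several) against FPKM (log axis) for 8 calcium pump and exchanger genes; grey bands show the quartiles and grey lines the median of protein-coding genes in 4 classes of FPKM. Atp2b1 lies above its band with 54 CpG, and Slc8a2, Slc8a1 and Atp2b4 lie below theirs with 10, 9 and 4.

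Short motifs were counted on both strands of the windows. The GC box GGGCGG was in 6 of the 11 windows, against 46.2% of all protein-coding windows, and the 5 matches in the Atp2a3 window were the most in any member. The TATA motif TATAAA was in 0 of the 11, against 12.6% of all windows. The cyclic AMP response core TGACG was in 3 of the 11, in Atp2b1, Atp2b4 and Slc8a3, against 23.6%. The E-box CANNTG was in 7 of the 11, against 69.0%. Matches describe the letters of these windows and are not binding sites.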

How the data were processed

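Total RNA of the mPFC was DNase-treated and turned into libraries using a TruSeq RNA v2 kit (Illumina), per the labels' protocols. The authors deposited FPKM per Ensembl gene; CASAVA 1.8.2, TopHat and Cufflinks with build mm10 are named in the submitters' processing notes. How the 3 replicates were combined, which annotation was used and whether strand was counted is not given in the sources used here. In the table, the 2 value columns were identical in all 46073 rows and were counted as 1 sample. Transcript lengths were not used here, so fragment counts were not recovered and depth is unknown.

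Identifiers were matched to symbols for 45139 rows, and RefSeq listed 20635 as protein coding. The genes and lists were chosen with earlier results of these data known. All 10 genes are named; of each list at least the 2 highest and the lowest matched genes are named, and of each marker list the highest and lowest. Some list genes are not reported here, while list counts and medians include them. Strit1, Erln and Arln were not matched. A gene was called detected at 1 FPKM. Counts, ratios and CpG statistics were computed with pandas 2.3.3 and numpy 2.4.6 under Python 3.11.15 and drawn with matplotlib 3.10.9. Only the functions for pair counts, CpG counts, motif counts and percentiles were checked on simulated data. Overlapping genes can share reads: Atp2a1 overlaps Rabep2 at its end, and Atp2b2, Atp2b4 and Slc8a3 overlap non-coding genes.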

Additional observations from a re-analysis of the deposited data

How the results depend on the processing

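The count of detected calcium pumps and exchangers was 10 at a floor of 0.1 FPKM and 7 at 5 FPKM. Of protein-coding genes, about 28% were under 0.1 FPKM and about 59% under 5 FPKM. The count was 9 after rescaling to a fixed total without mitochondrial rows, which held 50.04% of summed FPKM. That rescaling multiplied every remaining value by 2.54, a factor that depends also on the total chosen. It raised the family sums to 316 for SERCA, 473 for PMCA and 187 for NCX and left their ratios as they were. Means or medians per gene in place of sums, chosen after seeing the data, changed the ratios between families, except SERCA over NCX by means. PMCA over SERCA became 1.12 by means and 35.1 by medians, and PMCA over NCX 1.90 and 5.95. SERCA over NCX stayed at 1.69 by means and reversed to 0.169 by medians, because 2 of the 3 SERCA genes are low. Pairs that were 2-fold apart numbered 9 in place of 7 with a smaller pseudocount, with none or after rescaling. Of the lists, 5 SERCA regulators were at 0.1 FPKM or more, and 2 ER release channels at 5 FPKM or more. Percentiles of the genes depend on the background used: Atp2a1 exceeded 33.0% of protein-coding rows and 61.3% of all rows. With no error per value, a sum, ratio or percentile was taken as unchanged when its first 3 digits stayed, and a count when it stayed within 1.5 times. Undoing the length scaling, protein identity and leaving out libraries were not run, since transcript lengths and protein sequences were not used here and the table holds 1 value per gene. No paired analysis was possible because there is 1 RNA sample.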

Other observations

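Of the 20 nearest protein-coding neighbours of the 10 genes, 1 on each side, 14 were at 1 FPKM or more and 17 were lower than the pump or exchanger beside them. Over all protein-coding rows 58.6% were at 1 FPKM or more, and the 10 genes exceeded 75.3% of these rows on average, so nothing is read from either count. The 3 that were higher flank genes at low levels: Sh2b1 at 15.1 FPKM beside Atp2a1, Zzef1 at 6.53 FPKM beside Atp2a3 and Gm20498 at 15.5 FPKM beside Slc8a3. Atp2b1 stood at 72.9 FPKM between Ccer1 at 0.00684 FPKM, 1220 kb away, and Poc1b at 2.41 FPKM, 80.9 kb away. Atp2b4 stood at 32.0 FPKM between Lax1 at 0.0535 FPKM and Optc at 0.306 FPKM. Slc8a2 at 62.5 FPKM begins 0.0760 kb from the end of the RefSeq span of Kptn, at 11.2 FPKM.

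The RefSeq spans of the genes ranged from 17.2 kb for Atp2a1 to 365 kb for Slc8a1. In the NCX family the shortest gene, Slc8a2 at 33.5 kb, had the highest RNA level and the longest, Slc8a1, had a lower one. Slc8a3, between them in length at 136 kb, had the lowest level. In the SERCA family the longest gene, Atp2a2 at 48.7 kb, had the highest level and the shortest, Atp2a1, the lowest. In the PMCA family the longest gene, Atp2b2 at 299 kb, stood next to Atp2b1 at 112 kb in level. RefSeq lists 21 transcripts for Slc8a1, 20 for Atp2b2 and 2 for Atp2a1, and the FPKM of a gene depends on the transcript length assumed for it.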
